A study of Mus musculus with 19 samples.

Results

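The genes described here are 10 transcription factor genes that set or keep the identity of lung epithelium: *Nkx2-1*, *Foxa1*, *Foxa2*, *Gata6*, *Sox9*, *Sox2*, *Klf5*, *Elf3*, *Id2* and *Foxp2*. They were taken by gene symbol from the 53558 genes listed for each library, and all 10 were found. Their RNA was measured in neoplastic cells sorted from lung tumors of genetically engineered mice with a Cre-activated tdTomato reporter (R26LSL-tdTomato) and Cre-activated Cas9 (H11LSL-Cas9). Every tumor was started with a lentiviral vector that carries Cre and guide RNAs, so the alleles of the mice are shared by all groups and the groups differ in the guides. The sgInert group (7 libraries) received the guides sgNeo1, sgNT1 and sgNeo2, which target no mouse gene of interest, the sgCebpa/b/d group (7 libraries) received guides against the C/EBP factor genes *Cebpa*, *Cebpb* and *Cebpd*, and the sgLkb1 group (5 libraries) received a guide against *Stk11*, the mouse gene for the kinase LKB1. Tumors had grown for 17 weeks. The sort removed cells that stained for CD45, CD31, F4/80 or Ter119. The comparisons ask which lineage factors differ in RNA level when C/EBP factors or LKB1 are targeted, and whether these responses differ from each other.

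In the developing lung NKX2-1, a homeodomain factor, marks the whole epithelium and later drives surfactant genes in alveolar type II cells together with the forkhead factors FOXA1 and FOXA2 and the zinc finger factor GATA6. SOX9 and ID2 mark the progenitors at the distal tips of the branching airways, and SOX2 marks the proximal airway. FOXP2 is a forkhead repressor of the distal epithelium, KLF5 is a zinc finger factor needed for maturation of the lung around birth, and ELF3 is an ETS factor of epithelial cells. In lung adenocarcinoma, loss of NKX2-1 is known to go with gastric genes, and SOX9 with progenitor-like states.

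Libraries held 2760731 to 9944134 estimated read counts, with a median of 6028922. Library titles carried an animal number that begins with MT (3 sgInert, 4 sgCebpa/b/d and 3 sgLkb1 libraries), one that begins with ZR (4 sgInert libraries), or none (3 sgCebpa/b/d and 2 sgLkb1 libraries), and these 3 kinds of title are called title series here. Animal numbers recur within a group (in 2 libraries of sgInert, 3 with the C/EBP guides and 2 with the *Lkb1* guide), so n counts libraries and p-values measure the spread between libraries. All 3 sgCebpa/b/d libraries without a number came from males, and the 4 with a number and all 5 sgLkb1 libraries came from females. Of the sgInert libraries 4 came from males (3 with a ZR number and 1 with an MT number) and 3 from females. Comparisons with sgInert, also among MT-numbered libraries, thus set groups of different sex makeup against each other. The comparison of the targeted groups does so too, except among their MT-numbered libraries, which are all female. *Stk11* had 7.53 to 12.5 CPM (counts scaled to library size) in sgLkb1 and 19.5 to 22.9 CPM in sgInert, without overlap. *Cebpa* RNA was higher in sgCebpa/b/d than in sgInert (log2 fold change 0.73, standard error 0.14, edgeR adjusted p = 0.00148), and the RNA of an edited gene need not fall. *Cebpb* (1.16, edgeR adjusted p = 0.0524) and *Cebpd* (0.20, adjusted p = 0.742) were not called. Both were higher in the sgCebpa/b/d libraries without a number than in those with one (2.04 and 1.197, edgeR adjusted p = 0.000309 and 0.000679), and *Cebpd* was lower than in sgInert when MT-numbered libraries alone were compared (−0.77, edgeR adjusted p = 0.0177). The summed CPM of 7 epithelial markers was 874 to 1569 in all libraries, each of the 7 had counts in every group, and the basal cell markers *Krt5* and *Krt14* had no count in any library. The summed level of 8 fibroblast markers ranged from 11.1 to 153 CPM in sgInert libraries, from 62.8 to 242 with the C/EBP guides and from 97.2 to 254 with the *Lkb1* guide, and 2 of the 7 tested were called higher in each targeted group. Endothelial markers (6 genes) summed to at most 46.0 CPM in sgInert, 246 with the C/EBP guides and 187 with the *Lkb1* guide, and 4 of the 6 were called higher with the C/EBP guides. Against sgInert 10.1% of all genes were called in sgCebpa/b/d and 5.78% in sgLkb1. Immune markers (10 genes) summed to at most 20.2, 78.8 and 65.9 CPM. Of 4 mesothelial markers only 1, *Msln*, had enough counts to be tested. It was called higher in sgLkb1 (6.58 to 17.2 CPM) than in sgInert (at most 3.45 CPM). In bulk RNA, fewer cells of a type and less RNA per cell cannot be told apart.

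Levels of different genes were compared as TPM, a share of all transcripts corrected for their length. In sgInert tumors *Id2* was the most abundant of the 10 factors, at 200 ± 75.9 TPM (mean ± SD, n = 7), and *Nkx2-1* followed at 145 ± 14.3. The 2 did not separate beyond their spread, since *Id2* was above *Nkx2-1* in 5 of 7 libraries. *Klf5* stood at 75.6 ± 23.8 TPM. *Gata6* (50.2 ± 8.06), *Foxa2* (47.2 ± 10.01), *Foxp2* (42.2 ± 6.66) and *Foxa1* (39.0 ± 8.22) formed a group whose neighbours in this order overlapped. *Elf3* was at 12.6 ± 2.69 TPM, below *Foxa1* and above *Sox9* (2.34 ± 2.46) in every sgInert library. *Sox2* was at or near 0.

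The order differed in the targeted tumors. *Nkx2-1* was first in both, at 170 ± 19.2 TPM in sgCebpa/b/d (n = 7) and 166 ± 25.1 in sgLkb1 (n = 5), and was above *Id2* in all 12 libraries. *Id2* came to 94.8 ± 41.7 TPM with the C/EBP guides and 82.0 ± 19.5 with the *Lkb1* guide, a range it shared with *Klf5*. *Foxp2* stood above *Foxa2* and *Gata6* in the order of means in sgCebpa/b/d, at 62.5 ± 12.8 TPM. *Foxa1* stayed between that group and *Elf3* in both, at 29.4 ± 7.20 and 31.7 ± 8.26 TPM.

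**Figure D1:**
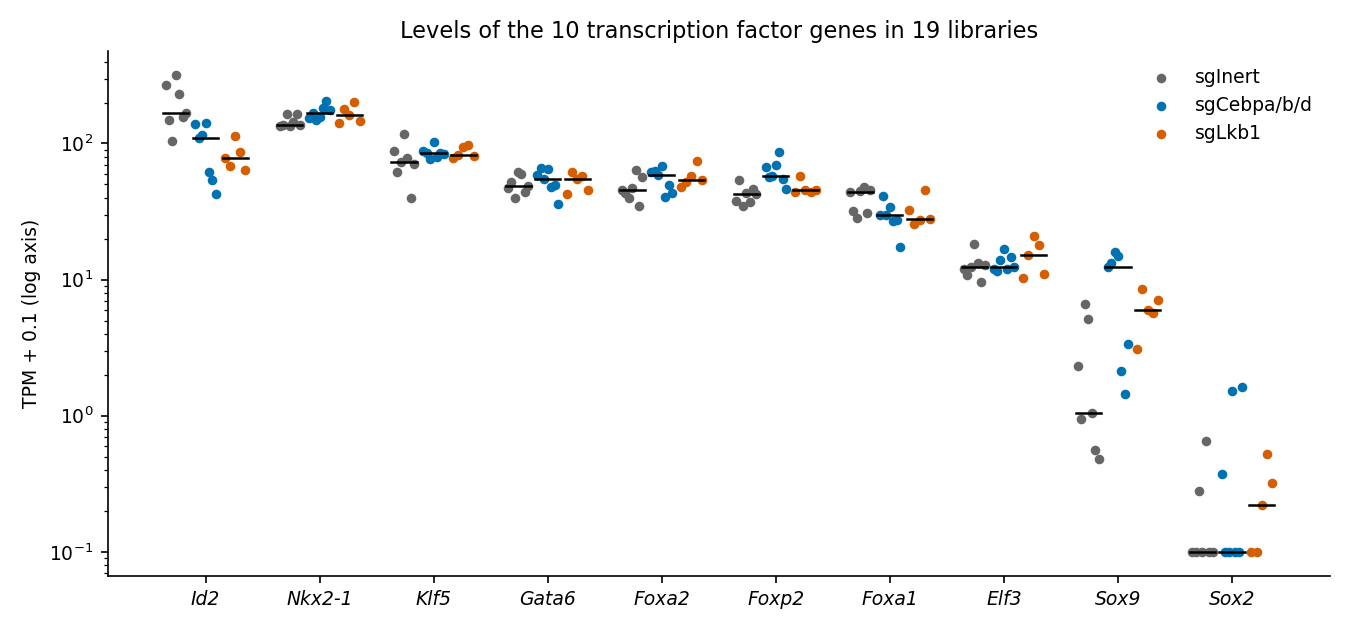
TPM plus 0.1 on a log axis for the 10 genes in each of 19 libraries (points) with group medians (bars), for sgInert, sgCebpa/b/d and sgLkb1. *Id2* is lower and *Sox9* mostly higher in the targeted groups, *Nkx2-1* lies between 133 and 204 TPM in all libraries, and *Sox2* stays below 2 TPM.

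Of the 10 factors 9 passed the filter on low counts and were tested among 13986 genes with edgeR's quasi-likelihood test in a model of all 19 libraries, with Benjamini-Hochberg adjustment over all genes tested. A gene was called at an adjusted p under 0.05. Between sgCebpa/b/d and sgInert 3 of 9 factors were called: *Id2* was lower, and *Foxp2* and *Sox9* were higher. In that comparison 10.1% of all genes were called. Between sgLkb1 and sgInert *Id2* alone was called, lower in sgLkb1, against 5.78% of all genes. Between sgCebpa/b/d and sgLkb1 *Foxp2* alone was called, higher in sgCebpa/b/d, against 5.96% of all genes. The comparisons with sgInert share its 7 libraries. The median log2 fold change of the 9 factors was 0.18, 0.00 and 0.23 in the 3 comparisons, and that of all genes tested was 0.02, −0.01 and 0.03.

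**Figure D2:**
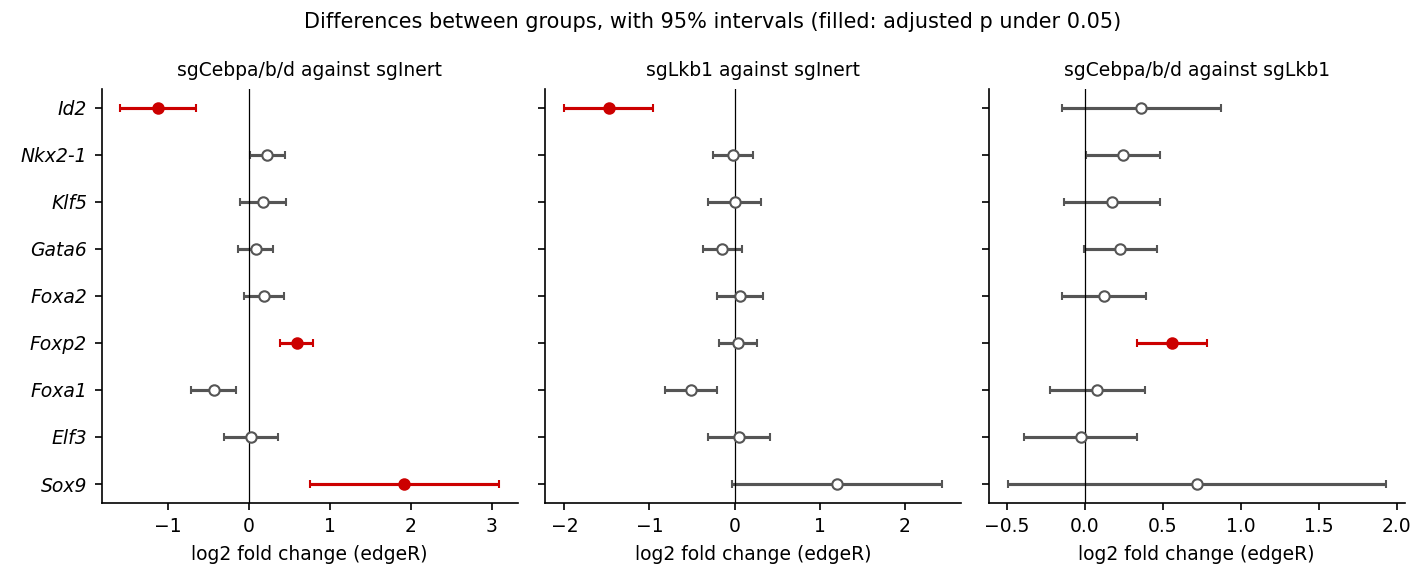
Log2 fold changes of the 9 tested factors in the 3 comparisons (points) with approximate 95% intervals (bars). Filled red points have an edgeR adjusted p under 0.05. *Id2* is called in the 2 comparisons with sgInert and *Foxp2* in the 2 that hold sgCebpa/b/d, while the interval of *Sox9* is the widest in each panel.

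*Id2* (chromosome 12, 25093799 to 25097140, minus strand, GRCm38) encodes a helix-loop-helix protein that lacks a DNA-binding domain and holds E proteins off DNA. In sgInert it had 90.7 CPM at the lowest, 145 at the median and 251 at the highest of 7 libraries. In sgCebpa/b/d the lowest, median and highest were 42.5, 86.5 and 108 CPM. In the 5 sgLkb1 libraries it had 54.5, 51.4, 84.0, 58.4 and 48.6 CPM. Every sgLkb1 library was below every sgInert library, and 6 of 7 sgInert libraries were above every sgCebpa/b/d library. The groups of libraries did not overlap for 4.15% of all genes between sgLkb1 and sgInert and for 3.37% between sgCebpa/b/d and sgInert.

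The log2 fold change of *Id2* was −1.12 in sgCebpa/b/d (standard error 0.24, edgeR adjusted p = 0.00313) and −1.48 in sgLkb1 (standard error 0.27, edgeR adjusted p = 0.00165), so sgInert was 2.17-fold and 2.79-fold higher. The direct comparison of the targeted groups gave 0.36, with a 95% interval from −0.15 to 0.87 and an adjusted p of 0.509 (edgeR). Title series moved with *Id2* within sgCebpa/b/d: the 3 libraries without a number had 54.98, 43.0 and 42.5 CPM and the 4 with an MT number 108, 86.5, 94.5 and 106 CPM (log2 difference −1.07, standard error 0.26, edgeR adjusted p = 0.0144, a test that called 8.17% of all genes). Those libraries also differ in sex, and which of the 2 goes with *Id2* cannot be told apart. Among MT-numbered libraries alone, which come from 2 animal numbers in each group, *Id2* was at −0.66 in sgCebpa/b/d (adjusted p = 0.139) and fell by 1.27 in sgLkb1 (edgeR adjusted p = 0.00699). With libraries of the same animal number summed the call in sgLkb1 was lost (adjusted p = 0.0688). Each targeted library was below each sgInert library, as groups did not overlap for 19.2% and 23.3% of all genes in these small sets. In these MT comparisons 5.99% and 5.18% of all genes were called.

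*Foxp2* (chromosome 6, 14901349 to 15441977, plus strand) was higher with the C/EBP guides and not with the *Lkb1* guide. It had 113 CPM at the lowest, 121 at the median and 172 at the highest in sgInert, and 161, 187 and 244 in sgCebpa/b/d. The sgLkb1 libraries had 126, 142, 142, 122 and 125 CPM. All 7 sgCebpa/b/d libraries were above all 5 sgLkb1 libraries and above 6 of the 7 sgInert libraries, the exception being sgInert replicate 2. Groups did not overlap for 5.08% of all genes between sgCebpa/b/d and sgLkb1. The log2 fold change against sgInert was 0.60 (standard error 0.10, edgeR adjusted p = 0.000524), that against sgLkb1 0.56 (standard error 0.11, edgeR adjusted p = 0.00417), and that of sgLkb1 against sgInert 0.04 (95% interval −0.18 to 0.26).

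The *Foxp2* difference between the targeted groups was of like size in both title series. It was 0.52 among MT-numbered libraries (edgeR adjusted p = 0.0335, with 4.68% of all genes called). Among libraries without a number it was 0.61 (edgeR adjusted p = 0.0447, with 4.16% of all genes called). The latter set males against females, so guides and sex cannot be told apart there. Against sgInert among MT-numbered libraries the *Foxp2* difference was 0.45 in sgCebpa/b/d (edgeR adjusted p = 0.0609), short of the threshold. With libraries of the same animal number summed it was 0.51 (edgeR adjusted p = 0.225). On the TPM scale the targeted groups overlapped for *Foxp2*, from 46.5 to 85.9 TPM with the C/EBP guides and from 43.7 to 57.8 TPM with the *Lkb1* guide, and the call between them was lost (limma adjusted p = 0.115). On that scale the median of all genes stood at −0.15, and *Foxp2* relative to it was 0.53 higher in sgCebpa/b/d. The miRNA gene Gm25470 annotated inside *Foxp2* had no count in any library.

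*Sox9* (chromosome 11, 112782224 to 112787760, plus strand), an HMG-box factor of distal tip progenitors, varied more between libraries than any other tested factor. It had 1.22 CPM at the lowest, 2.84 at the median and 20.9 at the highest of the sgInert libraries, from 5 to 79 counts. In sgCebpa/b/d the 4 MT-numbered libraries had 35.5, 38.3, 48.3 and 41.4 CPM, and the 3 without a number had 6.71, 4.06 and 12.2. The sgLkb1 libraries had 7.85, 23.5, 16.1, 14.0 and 19.7 CPM. The MT-numbered sgCebpa/b/d libraries were thus above all others, while those without a number lay within the sgInert range.

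The log2 fold change of *Sox9* was 1.92 in sgCebpa/b/d (standard error 0.59, edgeR adjusted p = 0.0419), a call that sits close to the threshold. Without 1 of 10 single libraries (sgInert replicates 1, 2, 5, 6 and 7, sgCebpa/b/d replicates 1, 2, 3 and 4, and sgLkb1 replicate 3) the adjusted p was 0.0512 to 0.0835, with sex as a covariate it was 0.154, and with libraries of the same animal number summed it was 0.223. In sgLkb1 the value was 1.21 (standard error 0.63, edgeR adjusted p = 0.317). With MT-numbered libraries alone *Sox9* rose by 4.11 in sgCebpa/b/d (standard error 0.63, edgeR adjusted p = 0.000376) and by 2.91 in sgLkb1 (standard error 0.64, edgeR adjusted p = 0.00848). With libraries of the same animal number summed the former was kept (edgeR adjusted p = 0.0241) and the latter was not (edgeR adjusted p = 0.114). The MT-numbered sgInert libraries were low, at 2.73, 2.84 and 1.22 CPM, and ZR-numbered sgInert libraries were 2.18 higher on the log2 scale (edgeR adjusted p = 0.0814, in a test that called 2.14% of all genes). Within sgCebpa/b/d the libraries without a number were 2.41 lower (edgeR adjusted p = 0.0102), and they also differ in sex from the MT-numbered ones.

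Fibroblast markers moved in the same direction as *Sox9* among MT-numbered libraries. Their summed level was 11.1 to 21.2 CPM in sgInert, 62.8 to 234 CPM with the C/EBP guides and 97.2 to 221 CPM with the *Lkb1* guide, and 5 of the 7 tested markers were called higher in each targeted group. Of all genes 5.99% and 5.18% were called in these comparisons. *Lum* had no count in the MT-numbered sgInert libraries. In the 3 sgCebpa/b/d libraries without a number, where *Sox9* was low, the sum was 170 to 242 CPM, and endothelial markers (170 to 246 CPM) and immune markers (65.4 to 78.8 CPM) were above their ranges in the other sgCebpa/b/d libraries (13.02 to 47.3 and 4.71 to 9.70 CPM). The part of these cells in the *Sox9*, *Id2* and *Foxp2* values, and in the values of the gene lists given below, was not tested.

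**Figure D3:**
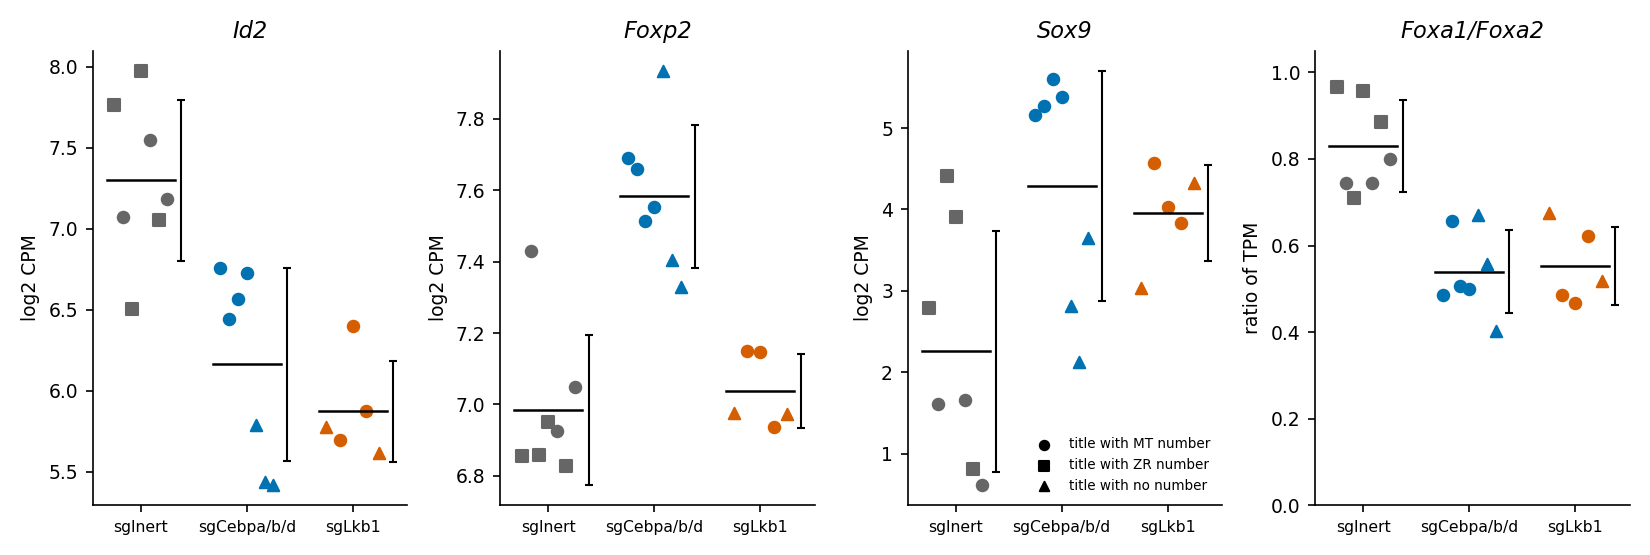
Log2 CPM of *Id2*, *Foxp2* and *Sox9* and the ratio of *Foxa1* to *Foxa2* TPM in each library (points; circles, MT number in the title; squares, ZR number; triangles, no number) with the group mean (line) and SD (bar to the right). *Foxp2* is higher in every sgCebpa/b/d library than in all sgLkb1 libraries and 6 of the 7 sgInert libraries. *Sox9* is high in MT-numbered sgCebpa/b/d libraries, and the *Foxa1* to *Foxa2* ratio is below 0.7 in all 12 targeted libraries and above 0.7 in all 7 sgInert libraries.

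The 2 FOXA genes, whose proteins open chromatin at shared sites, differed in their values. *Foxa1* (chromosome 12, 57540628 to 57546916, minus strand) had 69.2, 99.0 and 111 CPM at the lowest, median and highest in sgInert and 48.8, 67.3 and 89.7 in sgCebpa/b/d. The sgLkb1 libraries had 64.0, 53.8, 56.3, 87.1 and 59.6 CPM. The groups overlapped. The log2 fold change of −0.43 with the C/EBP guides had a standard error of 0.14 (edgeR adjusted p = 0.0564), and that of −0.51 with the *Lkb1* guide one of 0.16 (edgeR adjusted p = 0.0567), so *Foxa1* was not called in either. It was called in both with DESeq2 (adjusted p = 0.0356 and 0.0285) and with sex as a covariate (adjusted p = 0.0291 and 0.0210). *Foxa2* (chromosome 2, 148042877 to 148046969, minus strand) was at 0.19 (95% interval −0.06 to 0.43) and 0.06 (95% interval −0.20 to 0.33).

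The ratio of *Foxa1* to *Foxa2* TPM within a library does not depend on how libraries are scaled. It was 0.710 at the lowest, 0.799 at the median and 0.967 at the highest in sgInert. In sgCebpa/b/d it was 0.403, 0.507 and 0.670, and in sgLkb1 it was 0.675, 0.485, 0.468, 0.621 and 0.517. Both targeted groups were below sgInert without overlap. This ratio was chosen after its values were seen. Of the 36 pairs of the 9 factors, the ratio of 4 did not overlap between sgCebpa/b/d and sgInert and that of 6 between sgLkb1 and sgInert, and the other pairs all held *Id2*. Over all pairs of genes the share was 2.58% and 3.17%.

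Short stretches of the *Foxa1* and *Foxa2* promoter windows are shown because their ratio separated the groups, and that of *Sox2* because it holds the C/EBP letters. RefSeq promoter windows (GRCm38.p6, 250 bases before to 50 after a start) were matched for 6 of the 10 factors, *Nkx2-1*, *Foxa1*, *Foxa2*, *Sox2*, *Elf3* and *Id2*. Both strands were searched for TTGCNNAA (C/EBP), TGTTTAC (FOXA), CACTTGA and CTCAAG (NKX2-1) and TGACGTCA (CRE), and capitals mark the match, which in *Foxa1* and *Foxa2* is the reverse complement.
*Foxa1*, chr12:57546206-57546292, minus strand: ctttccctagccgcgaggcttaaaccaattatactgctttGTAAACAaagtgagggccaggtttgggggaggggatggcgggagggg
*Foxa2*, chr2:148045606-148045691, minus strand: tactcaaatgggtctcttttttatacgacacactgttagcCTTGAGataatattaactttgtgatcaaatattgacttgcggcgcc
*Sox2*, chr3:34649745-34649805, plus strand: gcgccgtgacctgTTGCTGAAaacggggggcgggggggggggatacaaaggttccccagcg
Distances are from the RefSeq start of each window, and these starts differ from the ends of the GENCODE spans given for the genes. The *Foxa1* and *Foxa2* stretches lie inside those spans, and the *Sox2* window ends before the *Sox2* span. The FOXA letters begin 141 bases before the RefSeq *Foxa1* start and stand in 3.65% of all windows. The CTCAAG letters begin 187 bases before the most downstream of 3 RefSeq *Foxa2* starts and stand in 15.9% of windows. The C/EBP letters begin 237 bases before the RefSeq *Sox2* start and stand in 10.8%. No window of *Id2*, *Nkx2-1* or *Elf3* held any of the 5 motifs.

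*Nkx2-1* (chromosome 12, 56531958 to 56536908, minus strand) had the lowest SD of the 9 tested factors in sgInert (0.17 on the log2 CPM scale), and 5 factors had a lower SD than its 0.25 in sgCebpa/b/d. It had 203, 227 and 275 CPM at the lowest, median and highest in sgInert and 224, 251 and 339 in sgCebpa/b/d. The sgLkb1 libraries had 191 to 263 CPM. All groups overlapped. It differed from sgInert by 0.23 on the log2 scale in sgCebpa/b/d (95% interval 0.01 to 0.44, edgeR adjusted p = 0.218) and −0.01 in sgLkb1 (95% interval −0.25 to 0.22, adjusted p = 0.970). Among libraries without a number *Nkx2-1* was 0.67 higher in sgCebpa/b/d than in sgLkb1 (edgeR adjusted p = 0.00698), among MT-numbered libraries the difference was −0.08, and the difference between these differences was 0.75 (edgeR adjusted p = 0.0979, in a test that called 0.136% of all genes). Within sgCebpa/b/d the libraries without a number were 0.45 higher (edgeR adjusted p = 0.0168). Libraries without a number were male in sgCebpa/b/d and female in sgLkb1, and the MT-numbered ones of both groups were female. Sex thus cannot be told apart from guides in the 0.67, from title series in the 0.45, or from either in the 0.75. Within sgLkb1 no factor was called between title series, where 0.179% of all genes were called, and 3 of the 9 had an unadjusted p under 0.05, as had 5.99% of all genes. The antisense gene Gm26973 that overlaps *Nkx2-1* had at most 21 counts.

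*Gata6* (chromosome 18, 11052064 to 11085635, plus strand), *Klf5* (chromosome 14, 99298691 to 99315036, plus strand) and *Elf3* (chromosome 1, 135253575 to 135258568, minus strand) were not called in any of the 3 comparisons. *Gata6* ranged from 84.7 to 147 CPM over all groups, *Klf5* from 94.1 to 267 and *Elf3* from 12.2 to 25.9. Their log2 fold changes against sgInert were 0.09, 0.18 and 0.02 in sgCebpa/b/d and −0.14, 0.00 and 0.05 in sgLkb1, and the widest of the 95% intervals, that of *Elf3* in sgLkb1, ran from −0.31 to 0.41. *Klf5* varied more within sgInert (SD 0.46 on the log2 CPM scale) than within sgCebpa/b/d (0.13) or sgLkb1 (0.12). The SD of 6 of the 9 factors in sgInert was below 0.42, the median over all genes tested. *Gata6* overlaps 1010001N08Rik and *Elf3* overlaps Gm26642, both on the other strand, with at most 35 and 11 counts.

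*Sox2* (chromosome 3, 34650405 to 34652461, plus strand) did not pass the filter. Among sgInert libraries 5 of 7 had no *Sox2* count, with the C/EBP guides 4 of 7 and with the *Lkb1* guide 2 of 5, and no library had more than 16. A count of 0 allows up to 3 counts, 0.302 to 1.09 CPM by library, counting error only. *Sox2* lies inside *Sox2ot*, a noncoding gene on the same strand with at most 22 counts.

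The genes that NKX2-1 is known to drive in alveolar type II cells were in large part lower in both targeted groups, while *Nkx2-1* itself was not called. Their list was chosen with earlier results of these data known. From these tumors the authors name *Etv5*, *Cxcl15*, *Hc* and *Lyz2*, all on the list, as dependent on both LKB1 and C/EBPs. The counts are thus a description and no independent support. Of 15 genes of the list tested, 10 were lower and none higher in each comparison with sgInert, with medians of −0.45 (sgCebpa/b/d) and −0.52 (sgLkb1). Of all genes 10.1% and 5.78% were called in these comparisons. In sgCebpa/b/d the smallest p-values were those of *Lyz2*, a lysozyme (−3.52), *Abca3*, a lipid transporter of lamellar bodies (−1.33), *Hc*, complement C5 (−1.58), and *Etv5*, an ETS factor downstream of FGF signals (−1.15). In sgLkb1 they were *Hc* (−1.55), *Lyz2* (−1.94), *Lpcat1*, an enzyme of surfactant lipid synthesis (−0.56), and *Sftpa1*, surfactant protein A (−1.08). Between the targeted groups, where 5.96% of all genes were called, 2 of 15 were lower in sgCebpa/b/d, *Abca3* and *Lyz2*, and *Sftpa1* was higher. In MT-numbered libraries 7 of 15 were lower in sgCebpa/b/d than in sgInert (median −0.26) and 8 of 15 in sgLkb1 (median −0.52), with none higher. Of all genes 5.99% (sgCebpa/b/d) and 5.18% (sgLkb1) were called there.

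Alveolar type I genes moved the other way. Of 12 tested, 8 were higher in sgCebpa/b/d and none lower, with a median of 0.65, where 10.1% of all genes were called. Among the 8 were *Hopx*, a homeodomain-only protein (1.86), the mucin-like *Pdpn* (2.52), *Ager* (0.58) and *Clic5* (0.70). In sgLkb1 2 were higher, *Emp2* (0.44) and *Akap5* (0.92), with a median of 0.28, where 5.78% of all genes were called. In MT-numbered libraries 6 of 12 were higher in sgLkb1, with a median of 0.49, and 9 of 12 in sgCebpa/b/d, with a median of 0.64. Of all genes 5.18% (sgLkb1) and 5.99% (sgCebpa/b/d) were called there. *Clic5* and *Pdpn* were also higher in sgCebpa/b/d than in sgLkb1, a comparison that called 5.96% of all genes.

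Genes of the distal tip progenitor, a list that holds *Sox9* and *Id2* themselves, were split. Of 11 tested, 4 were higher and 5 lower in sgCebpa/b/d, with a median of −0.33, where 10.1% of all genes were called. *Etv5* is counted in this list, in that of NKX2-1 target genes and in that of other lung epithelial factors. *Shh*, the epithelial hedgehog ligand, rose by 1.48 (standard error 0.15, edgeR adjusted p = 8.28e-07), while *Fgfr2*, the receptor through which FGF10 acts on the tip, fell by 1.59 and *Etv5* by 1.15. In sgLkb1 2 were higher and 3 lower, where 5.78% of all genes were called. *Shh* (0.80) and *Mycn* (1.13) rose, and *Id2*, *Fgfr2* (−0.80) and *Etv5* (−0.68) fell. Between the targeted groups, where 5.96% of all genes were called, *Bmp4* and *Shh* were higher and *Fgfr2* lower with the C/EBP guides. Against sgInert among MT-numbered libraries, 2 were higher and 3 lower with the C/EBP guides, where 5.99% of all genes were called. With the *Lkb1* guide 3 were higher and 2 lower there, where 5.18% of all genes were called.

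Of 20 paralogs and partners of the 10 factors tested, 3 were higher in sgCebpa/b/d and none lower, *Id3* (1.52), *Klf2* (1.87) and *Klf4* (1.08), where 10.1% of all genes were called. *Sox21* alone was higher in sgLkb1 (2.41), where 5.78% were called. In the sgCebpa/b/d libraries without a number, where endothelial and immune markers summed to more, *Id3* had 81.7 to 95.01 CPM, *Klf2* 75.8 to 85.2 and *Klf4* 262 to 278. In the MT-numbered ones *Id3* had 32.1 to 64.9 CPM, *Klf2* 20.2 to 59.3 and *Klf4* 101 to 166. The part of those cells in these values was not tested. *Id3* was also higher in sgCebpa/b/d than in sgLkb1 (1.19). None of the 20 was called among MT-numbered libraries. Of 15 other lung epithelial factor genes, 2 were higher and 3 lower in sgCebpa/b/d, led by *Bach2* (−1.77), *Hopx*, *Etv5* and *Tfcp2l1* (−0.47). In sgLkb1 *Ets1* was higher (1.31) and *Tfcp2l1* (−0.42) and *Etv5* lower. Between the targeted groups, *Bach2* (−2.04) and *Srebf1* (−0.45) were lower and *Nfia* (0.33) higher with the C/EBP guides.

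Of 11 airway genes 6 passed the filter, and 1 was called in sgCebpa/b/d (of all genes 10.1%) and 3 in sgLkb1 (of all genes 5.78%). *Cbr2*, a carbonyl reductase of club cells, rose by 1.19 in sgCebpa/b/d and fell by 1.97 in sgLkb1, and differed by 3.16 between the targeted groups (standard error 0.39, edgeR adjusted p = 1.95e-05). The club cell enzyme *Cyp2f2* (−0.79) fell and the airway mucin *Muc5b* (2.61) rose in sgLkb1. *Muc5b* had at most 1 count in the MT-numbered sgInert libraries, 16 to 47 counts in the MT-numbered libraries with the C/EBP guides and 18 to 88 in those with the *Lkb1* guide, and was called higher in both (edgeR adjusted p = 0.00436 and 0.00212). Of 16 gastric and gut-like genes 7 passed the filter, and the gastric mucin *Muc5ac* alone was called over all libraries, higher in sgCebpa/b/d (6 to 43 counts) than in sgInert (0 to 6 counts). In the MT-numbered libraries *Muc5ac* had no count in sgInert and was called higher in both targeted groups, with 6 to 43 counts with the C/EBP guides and 0 to 14 with the *Lkb1* guide.

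**Figure D4:**
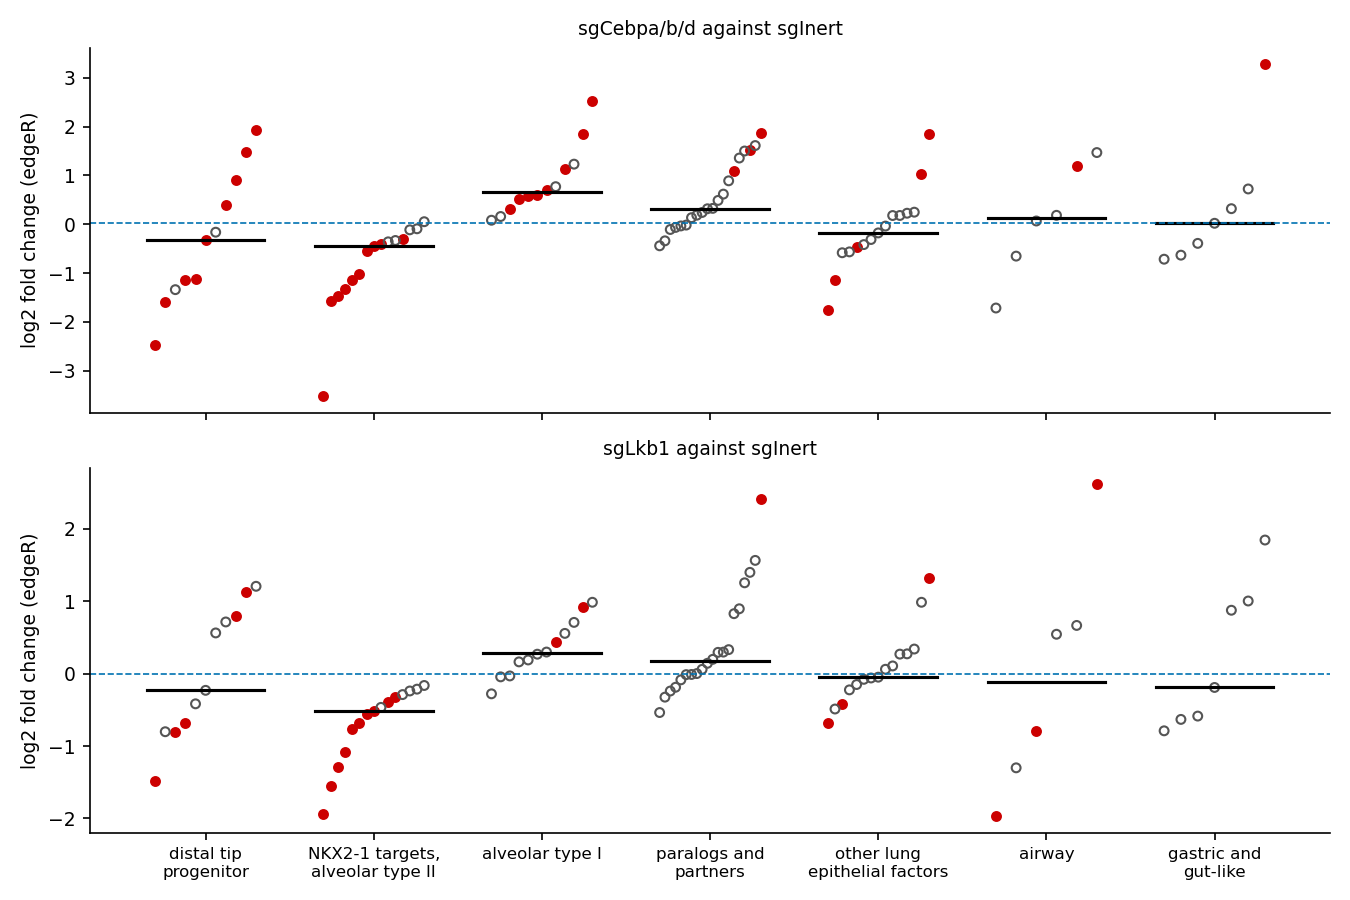
Log2 fold changes against sgInert of the tested genes of 7 lists (points, ordered within a list; filled red, edgeR adjusted p under 0.05), with each list's median (bar) and the median of all genes tested (dashed line). NKX2-1 target genes lie mostly below 0 in both comparisons, with 10 of 15 lower, and alveolar type I genes above 0 in sgCebpa/b/d, with 8 of 12 higher. Of all genes 10.1% were called in sgCebpa/b/d and 5.78% in sgLkb1.

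Among 11079 genes with an average log2 CPM above 2, those closest to the called factors over the 19 libraries were *Car8* (Pearson's r = 0.92), *Krt23* (0.91) and *Slc39a8* (0.91) for *Id2*, Gm43719 (0.87), *Tns1* (0.86) and *Antxr1* (0.85) for *Foxp2*, and *Ston2* (0.86), *Hist1h4c* (0.86) and *Pdk4* (0.83) for *Sox9*. Among the factors the highest r was that of *Foxa1* with *Id2* (0.77) and the lowest that of *Nkx2-1* with *Id2* (−0.56). These values are descriptions over libraries that share groups, title series and scaling.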

How the data were processed

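RNA-seq of sorted neoplastic cells (Trio RNA-Seq kit) was aligned by the authors to mm10 with STAR 2.6.1d and quantified with RSEM 1.2.30. The deposited expected counts are RSEM estimates per gene, without normalization, and the deposited TPM values are corrected for length by RSEM. The authors' tables of log2 fold changes and p-values (DESeq2 1.26.0) and of normalized counts were not used. Whether counting used strand is not given in the sources used here, so reads of antisense genes cannot be told apart.

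Expected counts were rounded, filtered (filterByExpr, minimum count 10, total 15), scaled by TMM and fitted with edgeR 4.0.16 in R 4.3.3, 1 mean per group, or 1 per group and title series for within-series values. TPM (log2 with 1 or 0.1 added) was tested with limma 3.58.1, and DESeq2 1.42.0 was an alternative. Intervals are 95% normal approximations from standard errors that were derived from the edgeR F statistic. They are narrower than that test implies. CPM are TMM-scaled, and log2 CPM add a prior count of 2. Libraries differed from each other by more than sampling noise (chi-square per gene at least 7.34), and intervals from counts cover counting error only. The procedure was tested on simulated counts. Coordinates are GENCODE M21, GRCm38. Figures used Python 3.11.15 and matplotlib 3.10.9.

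The members and gene lists were chosen with earlier results of these data known. Named are the 10 factors, the targeted genes, per list and comparison at most 4 called genes with the smallest p, and the 3 genes most like each called factor. Overlapping genes were named after their values were seen. Alternatives covered scaling, test, filter, gene lengths, sex, libraries entered and the call rule. One allele that the mice of all groups carry is not reported here.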

Additional observations from a re-analysis of the deposited data

Results flagged for a closer look

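*Foxp2* in sgInert replicate 2, a library with an MT number, stood at 7.43 log2 CPM, above the next highest sgInert library at 7.05. Its gap was 0.635 of the range of the 7 sgInert libraries, past Dixon's 95% limit. It was the 1 value so marked in 27 sets of libraries (9 factors in 3 groups), where chance alone marks about 1 in 20, or 1.35. Without sgInert replicate 2 the log2 fold change of *Foxp2* in sgCebpa/b/d was 0.68 (edgeR adjusted p = 4.75e-05).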

How the results depend on the processing

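The lower *Id2* in sgLkb1 (−1.88 to −1.21) and the higher *Foxp2* in sgCebpa/b/d (0.53 to 0.68) against sgInert were called under all 30 alternatives that refit the model or change its input. Of the 30, 19 leave out 1 library each, and none gives each title series its own mean. Among MT-numbered libraries alone *Foxp2* was not called (0.45, edgeR adjusted p = 0.0609), and *Id2* in sgLkb1 was (−1.27, edgeR adjusted p = 0.00699). With a minimum absolute log2 fold change of 1 added to the call, *Foxp2* is not called and *Id2* is. *Id2* in sgCebpa/b/d was called in 29, the exception being the fit without the 5 libraries that carry no number (−0.75, adjusted p = 0.0541). *Sox9* in sgCebpa/b/d was called in 15 of 30. *Foxp2* between the targeted groups was called in 27, and lost with limma on TPM (adjusted p = 0.115 and 0.118) and without the 5 libraries that carry no number (adjusted p = 0.0529). *Gata6* between the targeted groups was called with sex as a covariate (0.35, adjusted p = 0.0497). *Foxa1* was called in 6 of 30 alternatives in each comparison with sgInert, among them without sgInert replicate 3, sgInert replicate 6, sgCebpa/b/d replicate 2 or sgLkb1 replicate 4 (lowest edgeR adjusted p 0.0206 with the C/EBP guides and 0.0203 with the *Lkb1* guide). The cause of these changes was not tested. Depth limits *Sox2* and the sgInert values of *Sox9*.

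Of the 9 factors, 1 was called between sgLkb1 and sgInert, and 2 with DESeq2 or with sex as a covariate. Sex as a covariate also raised the number of all genes called in that comparison, as given below. Between sgCebpa/b/d and sgLkb1 the count was 0 with an added minimum fold, 0 with limma on TPM with either pseudocount, 2 with sex, and 0 without libraries that carry no number, against 1. Among MT-numbered libraries the count in sgCebpa/b/d was 2 with DESeq2 and 2 without the filter, against 1, and in sgLkb1 it was 0 with libraries of the same animal number summed, against 2. The test of the difference between title series called 1 with DESeq2 and 1 without the filter, against 0. Leaving out 1 library gave 2 to 4 (sgCebpa/b/d), 1 to 2 (sgLkb1), 1 to 1 (between them), 1 to 2 and 2 to 3 (MT-numbered), and 0 to 1 (difference between series). The MT-numbered sgCebpa/b/d count was 2 without sgInert replicate 2 or without sgCebpa/b/d replicate 5 or 7, and the difference between series called 1 without sgInert replicate 6.

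Over all genes, leaving out the 5 libraries without a number gave 875, 528 and 450 calls, against 1412, 809 and 833. Sex as a covariate gave 1258 in sgLkb1 against sgInert, and summing libraries of 1 animal number gave 470 between the targeted groups. TPM with 1 added moved the median of all genes by 0.18 in sgLkb1 against sgInert and by −0.15 between the targeted groups. Calls then split 783 higher and 148 lower (against 393 and 416) and 162 higher and 805 lower (against 396 and 437). Summing libraries of 1 animal number and the ratio of counts were alternatives chosen after seeing the data.

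Replicate numbers do not pair the libraries, since deviations of same-numbered libraries correlated at −0.147 to 0.232 over 17 pairs. With a replicate block the counts of called factors were 3, 1 and 1, and the block changed no call of a factor in these 3 comparisons. It gave *Sox9* 2.04 and *Id2* −1.18 in sgCebpa/b/d.

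Direction turned only for factors that were not called. In sgLkb1 against sgInert these were *Nkx2-1* (0.19 with TPM and either pseudocount, 0.022 without the filter, 0.0054 with lengths, 0.16 with sex, 0.061 with the replicate block, 0.11 without libraries that carry no number), *Gata6* (0.063 and 0.064 with TPM, 0.0063 without those libraries), *Foxp2* (−0.025 with lengths, −0.026 with sex, −0.0052 with the block), *Klf5* (−0.043 with sex, −0.016 with the block, −0.034 summed), *Foxa2* (−0.067 with sex) and *Elf3* (−0.032 summed). Between the targeted groups these were *Foxa1* (−0.11 with TPM), *Foxa2* (−0.072 and −0.074 with TPM), *Klf5* (−0.013 and −0.014 with TPM), *Elf3* (0.0079 with sex, 0.0099 with the block, 0.041 summed) and *Nkx2-1* (−0.093 without libraries that carry no number). In sgCebpa/b/d *Elf3* was −0.027 without those libraries. Leaving out 1 library moved *Elf3* over −0.036 to 0.12, −0.11 to 0.17 and −0.15 to 0.14 (sgCebpa/b/d, sgLkb1, between them), *Foxa1* between them over −0.014 to 0.21, and in sgLkb1 *Foxa2* over −0.0040 to 0.14, *Klf5* over −0.089 to 0.12 and *Nkx2-1* over −0.059 to 0.054.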
